A study of Mus musculus with 4 samples.

Results

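The acyl-CoA thioesterases (Acot) and the fatty acid omega-hydroxylases (Cyp4) were examined in mucosa of the intestine, taken from males of 2 inbred mouse strains. The probe sets were chosen by gene symbol, Acot followed by a number or any symbol beginning with Cyp4, with the signals of Acot1, Acot2, Acot4 and Cyp4a10 on these arrays already known, so their values are a description and carry no test. The rule took 32 of 22626 probe sets, 17 for Acot and 15 for Cyp4, annotated to 26 of the 13319 genes that the platform annotation names. Probe sets annotated to several genes were kept. Cyp46a1, a brain cholesterol hydroxylase, enters by its letters alone and belongs to another P450 family.

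The groups were A/J fed high-fat, A/J fed low-fat, C57BL/6J fed high-fat and C57BL/6J fed low-fat, all male and 10 weeks of age, after 2 weeks of feeding. The study held 6 mice per group. RNA of 2 of them, of average weight, was pooled, and the deposited table holds 1 array per group (Affymetrix Mouse Expression Array 430A), so a ratio between 2 arrays has no replicate check. Signals were scaled so that the trimmed mean of each array was 500. A scaled signal under 100 was taken as 100, the floor, in every ratio, and a ratio with 1 side at the floor is given as "at least" that many fold. In pooled mucosa, fewer cells of a type and less RNA per cell cannot be told apart.

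Acyl-CoA thioesterases split an activated fatty acid into the free acid and coenzyme A. The type I enzymes, Acot1 to Acot6, are close relatives placed in the cytosol (Acot1), the mitochondrion (Acot2) and the peroxisome (Acot3 to Acot6). The type II enzymes, Acot7 to Acot13, do the same chemistry with an unrelated fold. Cyp4 enzymes are P450 monooxygenases of the endoplasmic reticulum that hydroxylate fatty acids and eicosanoids at or near the far end of the chain, the first step towards dicarboxylic acids that peroxisomes shorten. In rodent liver, Cyp4a10, Cyp4a14 and Acot1 are textbook targets of the fatty acid receptor PPAR-alpha.

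Of the 32 probe sets, 25 had a mean scaled signal of at least 100 over the 4 arrays and are called measured, and 20 reached the floor on every array. The measured ones were 6 of 9 for type I Acot, 8 of 8 for type II Acot, 1 of 4 for Cyp4a, 1 of 1 for Cyp4b, 6 of 7 for Cyp4f, 2 of 2 for Cyp4v and that of Cyp46a1. The other 7 were under the floor on all arrays: Acot3, Acot5, 1 of the Acot6 probe sets, Cyp4a12a, Cyp4a14, the Cyp4a31 probe set that is annotated to that gene alone, and Cyp4f15. Their highest signal was 86.3, for Acot3 on A/J high-fat. Cyp4a14, a neighbour of Cyp4a10 on chromosome 4, had 26.1 on A/J high-fat and 5.16 on A/J low-fat, with 23.9 on C57BL/6J high-fat and 36.3 on C57BL/6J low-fat. A member that passed only through the array where it is high had to differ, as for the Acot1 probe set described below, and counts over the measured members are read with that in mind.

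The labelled tissue was checked with 14 markers of absorptive enterocytes on the array, which were above the floor in all groups and summed to between 200651 and 213308. Hepatocyte and kidney tubule markers, from other organs where these enzymes are made, were mostly dim, with 2 of 8 and 1 of 5 measured. Between arrays, 12 markers of exocrine pancreas summed to 2787 on A/J high-fat and 98313 on A/J low-fat, with 161406 on C57BL/6J high-fat and 102924 on C57BL/6J low-fat, with 6 of them under the floor on A/J high-fat and 0 on the others. In the same order of arrays, 8 stomach markers summed to 1427, 2989, 8423 and 1539, 8 smooth muscle markers to 2209, 3223, 1938 and 1964, and 4 adipocyte markers to 1189, 898, 1232 and 720.2. Most of the adipocyte sum was Cidec, with 1037, 766, 1060 and 553. Adipoq and Lep were under the floor on every array, and Retn read 127, 108, 141 and 146. The 7 T cell markers summed to 2756, 2288, 5271 and 8690.1, and the 5' probe set of 18S ribosomal RNA gave 84.4, 217.7, 1675 and 11010. Their part in the results was not tested.

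The comparison of the high-fat with the low-fat diet asked how these enzymes of fatty acid handling stood in each strain. The highest diet ratio belonged to a probe set shared by Cyp4a10 and Cyp4a31 in A/J, and the next to one shared by Acot1 and Acot2. Of the 25 measured members, 3 in A/J and 2 in C57BL/6J were higher on high-fat by 2-fold or more, where 0.812% and 1.04% of the 13431 measured probe sets were. Lower by 2-fold or more were 1 in A/J, Acot11, and 0 in C57BL/6J, against 1.05% and 0.64% of all. At 1.5-fold, 7 were higher and 1 lower in A/J (4.83% and 5.24% of all), and 8 were higher and 0 lower in C57BL/6J (5.76% and 4.44% of all). Acot1, Acot2, Acot4 and Cyp4a10 drew attention through these same ratios, so nothing is read from the counts.

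Cyp4a10, the fatty acid omega-hydroxylase of the rodent PPAR-alpha response, was seen through 1 probe set that also matches Cyp4a31, its neighbour on chromosome 4. Its scaled signal was 2679 on A/J high-fat and 179.7 on A/J low-fat, with 366 on C57BL/6J high-fat and 68.9 on C57BL/6J low-fat. The A/J high-fat array stood far above the other 3, and only the C57BL/6J low-fat array was under the floor. The signal was 14.9-fold higher on high-fat in A/J, the third highest diet ratio of 13431 in that strain, and at least 3.66-fold higher in C57BL/6J, the 18th highest. The probe set for Cyp4a31 alone never exceeded 4.35, and Cyp4a10 has no measured probe set of its own here.

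Acot1 and Acot2 lie side by side on chromosome 12 and share a probe set. It read 816 on A/J high-fat and 113 on A/J low-fat, with 490.4 on C57BL/6J high-fat and 104 on C57BL/6J low-fat. Both high-fat arrays were well above both low-fat arrays, which were close to the floor. The ratio was 7.23-fold in A/J, the 6th highest of all measured probe sets, and 4.72-fold in C57BL/6J, the 12th highest. A floor of 200 lowers the log2 ratios of 2.85 and 2.24 to 2.03 and 1.29, since the low-fat signals then count as 200.

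Each gene also has a probe set to itself. For Acot1, which keeps free fatty acids and acyl-CoA in balance in the cytosol, the signal was 274 on A/J high-fat and 38.9 on A/J low-fat, with 148 on C57BL/6J high-fat and 72.3 on C57BL/6J low-fat. Both low-fat arrays were under the floor, so the ratios are bounds of at least 2.74-fold in A/J and at least 1.48-fold in C57BL/6J. For Acot2, the mitochondrial enzyme, the signal was 287 on A/J high-fat and 164 on A/J low-fat, with 157 on C57BL/6J high-fat and 52 on C57BL/6J low-fat. The A/J arrays differed 1.75-fold and the C57BL/6J arrays at least 1.57-fold. The Acot1 probe set passed the limit on mean signal through its high-fat arrays, so it had to look higher there. How much of the shared signal came from each gene was not tested.

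**Figure D1:**
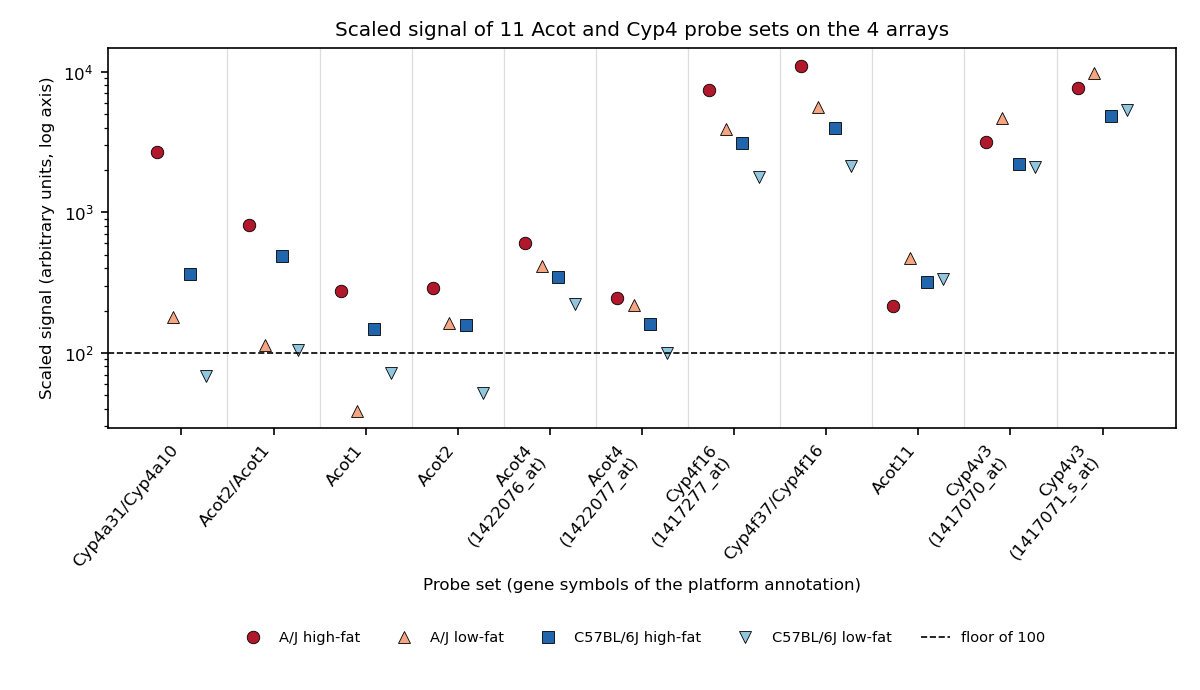
Scaled signal (arbitrary units, log axis) of 11 Acot and Cyp4 probe sets, with 1 point for each of the 4 arrays and a dashed line at the floor of 100. Cyp4a31/Cyp4a10 reaches 2679 on A/J high-fat against 366 or less on the others, Acot2/Acot1 separates both high-fat arrays from both low-fat arrays, and the Cyp4f16 and Cyp4f37/Cyp4f16 probe sets are highest on A/J high-fat and lowest on C57BL/6J low-fat.

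The remaining type I enzymes differed less with diet. Acot4, the peroxisomal enzyme known in mouse to act on succinyl-CoA and other dicarboxylyl-CoA, read 602 on A/J high-fat and 412 on A/J low-fat, with 347 on C57BL/6J high-fat and 222 on C57BL/6J low-fat in 1 probe set. Its high-fat array was above its low-fat array in each strain, by 1.46-fold and 1.56-fold. The other probe set read 245 on A/J high-fat and 218 on A/J low-fat, with 160.3 on C57BL/6J high-fat and 101 on C57BL/6J low-fat, which is 1.13-fold and 1.59-fold. Acot6, a peroxisomal enzyme of branched chains in mouse, was 1.33-fold higher in A/J and 1.5-fold in C57BL/6J in its measured probe set. All 6 measured type I probe sets were higher on high-fat in both strains, where 26.6% of all measured probe sets were. All but that of Acot6 report Acot1, Acot2 or Acot4, whose signals were known when the genes were chosen. Nothing is therefore read from this count.

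As a yardstick for such ratios, log2 diet ratios of measured probe sets that report 1 and the same gene were compared over 6480 pairs. They differed by a median of 0.27 in A/J and 0.26 in C57BL/6J, and by up to 0.73 and 0.69 at the 90th percentile. The log2 ratios of Acot4, of 0.55 and 0.17 in A/J, lay within that range of each other and of no difference. This spread measures disagreement between probe sets on the same RNA and does not include a difference between mice.

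The promoters of Acot2, Acot1 and Acot4 are shown because these genes sit in a row on chromosome 12, followed by Acot3, Acot5 and Acot6, and were higher on high-fat together. Each line runs from 250 bases before to 50 bases after the annotated start (RefSeq, GRCm38.p6, plus strand). Capitals mark the best match, on either strand, to a direct repeat of AGGTCA with 1 base between the copies, the form of element that PPAR and RXR receptors are known to bind.
Acot2, chr12:83987611-83987910: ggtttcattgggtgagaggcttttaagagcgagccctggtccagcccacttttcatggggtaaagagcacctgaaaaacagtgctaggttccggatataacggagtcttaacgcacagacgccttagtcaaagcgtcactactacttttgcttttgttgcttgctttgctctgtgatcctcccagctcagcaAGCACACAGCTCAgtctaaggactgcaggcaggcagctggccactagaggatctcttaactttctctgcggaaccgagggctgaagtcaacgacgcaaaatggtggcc
Acot1, chr12:84009252-84009551: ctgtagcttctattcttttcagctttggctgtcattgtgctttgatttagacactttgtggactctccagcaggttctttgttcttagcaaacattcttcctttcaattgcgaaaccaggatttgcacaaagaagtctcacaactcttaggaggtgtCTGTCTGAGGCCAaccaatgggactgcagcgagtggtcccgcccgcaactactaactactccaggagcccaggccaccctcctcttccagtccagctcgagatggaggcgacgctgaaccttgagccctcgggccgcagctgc
Acot4, chr12:84038129-84038428: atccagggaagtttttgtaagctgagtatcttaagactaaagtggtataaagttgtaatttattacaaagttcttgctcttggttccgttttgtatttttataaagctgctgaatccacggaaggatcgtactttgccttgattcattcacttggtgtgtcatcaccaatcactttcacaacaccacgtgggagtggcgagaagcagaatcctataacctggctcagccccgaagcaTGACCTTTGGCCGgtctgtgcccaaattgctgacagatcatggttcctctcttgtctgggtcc

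Of the 12 letters of the repeat, the best match missed 2 in Acot4, at positions -13 to -1 from the start and on the opposite strand, 3 in Acot2, at -58 to -46, and 4 in Acot1, at -93 to -81. Acot2 had 2 equally good matches and Acot1 had 3, of which 1 is marked. Among the 32841 promoters of this length in the table, 3.86% held a match with up to 2 mismatches, 24.6% with up to 3 and 79.8% with up to 4, so the matches in Acot2 and Acot1 are ordinary. The Acot4 window also held AGGTCA itself, within the marked repeat, as did 16.3% of all promoters. Promoters were found for 20 of the 26 member genes, and those with up to 2 mismatches were Acot4, Acot12, Cyp4f16 and Cyp4f37. The best of them, Acot12, missed 1 letter, and 0.554% of all promoters held a match with up to 1 mismatch. These matches are letters in a short window and were not tested for binding.

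The type II enzymes showed no common direction with diet. Of their 8 measured probe sets, 3 were higher and 4 lower on high-fat in both strains, where 26.6% and 25.7% of all measured probe sets were. The 3 include both Acot12 probe sets, and the 4 include both that report Acot9. The median log2 ratios were -0.09 in A/J and 0.04 in C57BL/6J. Acot11, which carries a lipid-binding domain beside its thioesterase domains, read 217 on A/J high-fat and 471 on A/J low-fat, against 319 on C57BL/6J high-fat and 334 on C57BL/6J low-fat. It was 2.17-fold lower on high-fat in A/J and 1.05-fold lower in C57BL/6J, and A/J low-fat was the array that stood highest. Acot12, a cytosolic acetyl-CoA hydrolase, read 1419 on A/J high-fat and 1241 on A/J low-fat, with 1429 on C57BL/6J high-fat and 1027 on C57BL/6J low-fat. These arrays differed by 1.14-fold in A/J and 1.39-fold in C57BL/6J, and those of its other probe set by 1.83-fold and 1.52-fold.

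Acot8, the broad peroxisomal thioesterase, read 1439 on A/J high-fat and 1192 on A/J low-fat, with 1082 on C57BL/6J high-fat and 869 on C57BL/6J low-fat, a ratio of 1.21-fold and 1.25-fold. Acot13, a small enzyme associated with mitochondria, read 1886 on A/J high-fat and 2104 on A/J low-fat, with 1714 on C57BL/6J high-fat and 2332 on C57BL/6J low-fat, and was thus a little lower on high-fat in each strain. Acot9, a mitochondrial enzyme, was 1.02-fold and 1.22-fold lower on high-fat. The probe set that Acot9 shares with Acot10 read 551 on A/J high-fat and 826 on A/J low-fat, with 913 on C57BL/6J high-fat and 1215 on C57BL/6J low-fat. Acot7, best known from brain, read 660.1 on A/J high-fat and 732 on A/J low-fat, with 1017 on C57BL/6J high-fat and 917 on C57BL/6J low-fat, with opposite and small diet ratios of -0.15 and 0.15 on the log2 scale.

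**Figure D2:**
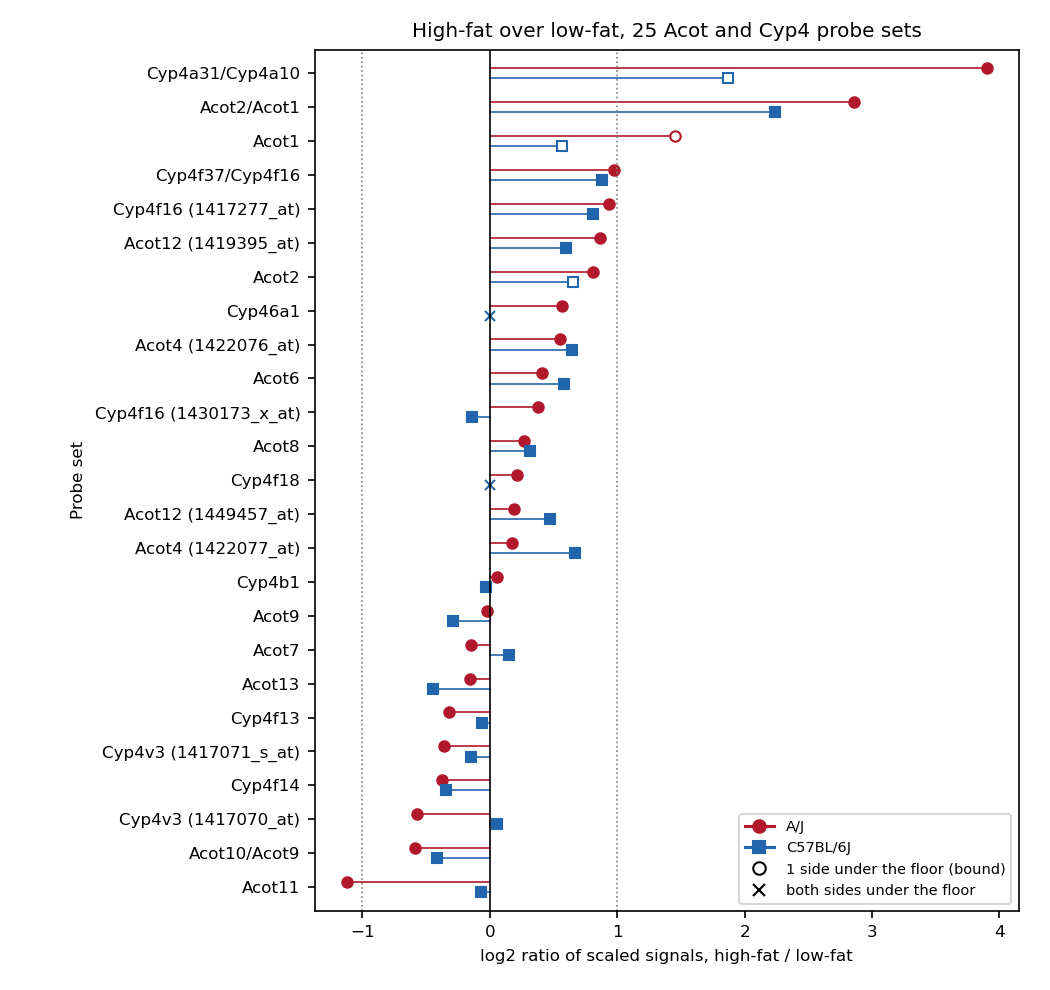
log2 ratio of high-fat over low-fat scaled signals for the 25 measured Acot and Cyp4 probe sets, with A/J as circles, C57BL/6J as squares, open symbols for bounds and crosses where both sides were under the floor; dotted lines mark 2-fold. Cyp4a31/Cyp4a10 and Acot2/Acot1 lie beyond 2-fold in both strains, and Acot11 lies below -1 in A/J and at -0.07 in C57BL/6J.

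Among the other Cyp4 genes, those of the Cyp4f cluster on chromosome 17 diverged from each other. Cyp4f16 was higher on high-fat by 1.92-fold in A/J and 1.75-fold in C57BL/6J, with 7429.6 on A/J high-fat and 3879.6 on A/J low-fat, with 3109 on C57BL/6J high-fat and 1774 on C57BL/6J low-fat. A probe set shared with its neighbour Cyp4f37 read 11054 on A/J high-fat and 5615 on A/J low-fat, with 3943 on C57BL/6J high-fat and 2141 on C57BL/6J low-fat, which is 1.97-fold and 1.84-fold. The 4 arrays fell in the same order in both probe sets, A/J high-fat, A/J low-fat, C57BL/6J high-fat and C57BL/6J low-fat from high to low. Another Cyp4f16 probe set, of a type that can also match other transcripts, read 701 on A/J high-fat and 539 on A/J low-fat, with 378 on C57BL/6J high-fat and 415 on C57BL/6J low-fat, so it kept the order of the strains but not that of the diets in C57BL/6J.

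The promoters of Cyp4f16 and Cyp4f37 are shown because the pair shares a probe set with the same pattern. Each again runs from 250 bases before to 50 after the start (RefSeq, GRCm38.p6, plus strand), with the best match to the AGGTCA repeat in capitals.
Cyp4f16, chr17:32536307-32536606: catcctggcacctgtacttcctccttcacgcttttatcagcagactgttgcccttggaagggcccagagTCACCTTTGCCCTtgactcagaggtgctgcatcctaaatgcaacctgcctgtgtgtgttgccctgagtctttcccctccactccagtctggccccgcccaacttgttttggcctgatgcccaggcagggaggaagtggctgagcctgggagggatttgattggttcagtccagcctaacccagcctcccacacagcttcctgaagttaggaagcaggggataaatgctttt
Cyp4f37, chr17:32621069-32621368: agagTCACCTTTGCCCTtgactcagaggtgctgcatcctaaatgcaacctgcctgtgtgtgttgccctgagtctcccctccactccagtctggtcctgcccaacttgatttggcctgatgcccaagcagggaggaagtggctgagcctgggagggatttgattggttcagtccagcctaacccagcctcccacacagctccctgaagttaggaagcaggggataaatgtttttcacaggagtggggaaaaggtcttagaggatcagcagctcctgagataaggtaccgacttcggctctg

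The 2 windows share an unbroken run of 74 bases, which starts at -185 in Cyp4f16 and at -250 in Cyp4f37. The latter is the edge of the window, so the run may be longer. The windows also match over other stretches nearer to their starts. In every other pair of Acot promoters or of Cyp4 promoters, the longest run was at most 14 bases. The same 13 letters, TCACCTTTGCCCT, lie in the shared run at -181 to -169 in Cyp4f16 and at -246 to -234 in Cyp4f37, with 2 mismatches to the repeat read on the opposite strand. The offset places the annotated start of Cyp4f37 farther from this run than that of Cyp4f16.

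Cyp4f14, a mouse leukotriene B4 hydroxylase, ran the other way, with 9167 on A/J high-fat and 11914 on A/J low-fat, with 11471 on C57BL/6J high-fat and 14543 on C57BL/6J low-fat. It was 1.3-fold lower on high-fat in A/J and 1.27-fold lower in C57BL/6J, log2 differences of -0.38 and -0.34 that lie inside the 90th percentile between probe sets of 1 gene. Cyp4f13 read 578 on A/J high-fat and 721 on A/J low-fat, with 628 on C57BL/6J high-fat and 654 on C57BL/6J low-fat. Cyp4f18, the leukotriene B4 hydroxylase of mouse neutrophils, stayed near the floor, between 82.1 and 129. Cyp4b1, which also acts on foreign compounds, was level across diets, with 1816 on A/J high-fat and 1745 on A/J low-fat, with 1516 on C57BL/6J high-fat and 1547 on C57BL/6J low-fat. Cyp4v3, the mouse counterpart of the human gene of Bietti crystalline dystrophy, read 3139 on A/J high-fat and 4674 on A/J low-fat, with 2192 on C57BL/6J high-fat and 2108 on C57BL/6J low-fat, so only A/J was lower on high-fat, by 1.49-fold. Its other probe set was 1.28-fold lower in A/J and 1.11-fold lower in C57BL/6J. Cyp46a1 read 161 on A/J high-fat and 108 on A/J low-fat, with 85.9 on C57BL/6J high-fat and 64.6 on C57BL/6J low-fat.

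**Figure D3:**
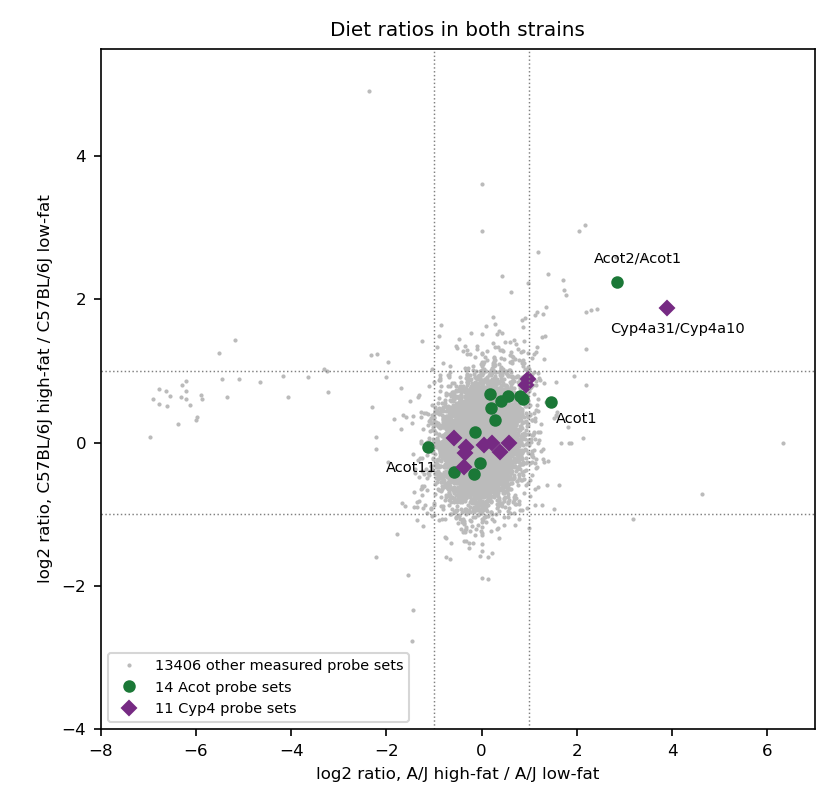
log2 ratio of high-fat over low-fat in A/J (horizontal) and in C57BL/6J (vertical) for the measured probe sets, with 14 Acot probe sets as green circles, 11 Cyp4 probe sets as purple diamonds, the other 13406 in grey and dotted lines at 2-fold. Acot2/Acot1 and Cyp4a31/Cyp4a10 lie beyond 2-fold in both strains, and most other members lie within the grey cloud.

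A/J was then set against C57BL/6J on each diet, to ask whether the strains differ in these enzymes. On high-fat, 3 of the 25 measured members were higher by 2-fold or more in A/J than in C57BL/6J and 0 were lower by as much, where 1.98% and 2.55% of all measured probe sets were. On low-fat, 4 were higher and 0 lower, where 3.14% and 2.8% of all were. At 1.5-fold, 12 were higher and 2 lower on high-fat (8.29% and 7.53% of all), and 8 were higher and 0 lower on low-fat (11.6% and 9.52% of all). Over the measured members the log2 strain ratio had a median of 0.52 on high-fat and 0.27 on low-fat, against 0.02 and 0.03 over all measured probe sets. The strain comparisons share arrays with the diet comparisons, so a high A/J high-fat signal enters both. With the signals of some members known at the choice, nothing is read from these counts and medians.

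In A/J, 1 Cyp4f16 probe set was higher by 2.39-fold on high-fat and by 2.19-fold on low-fat. The probe set shared with Cyp4f37 was higher by 2.8-fold and 2.62-fold. The strain ratio of these probe sets was nearly the same on both diets, and larger than their diet ratio. That was not so for the Cyp4f16 probe set that can also match other transcripts. There the A/J signal exceeded that of C57BL/6J by 1.85-fold with the high-fat diet and by 1.3-fold with the low-fat diet. In 1 probe set Cyp4v3 exceeded C57BL/6J by 1.43-fold on high-fat and by 2.22-fold on low-fat, and 1.6-fold and 1.85-fold in the other. Both Acot4 probe sets were also higher in A/J, by 1.73-fold and 1.53-fold on high-fat and by 1.85-fold and 2.17-fold on low-fat. Acot8 was 1.33-fold and 1.37-fold higher in A/J on the 2 diets.

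For Cyp4a10 and Cyp4a31 the strains stood apart mainly on high-fat, with 2679 in A/J and 366 in C57BL/6J, a ratio of 7.31-fold and the 14th highest of 13431. On low-fat the signals were 179.7 in A/J and 68.9 in C57BL/6J, at least 1.8-fold. The shared Acot1 and Acot2 probe set was above that of C57BL/6J by 1.66-fold on high-fat and by 1.09-fold on low-fat, where both arrays were near the floor. Lower in A/J were Acot7, by 1.54-fold on high-fat and 1.25-fold on low-fat, the probe set of Acot9 and Acot10, by 1.66-fold and 1.47-fold, that of Acot9 alone, by 1.17-fold and 1.4-fold, and Cyp4f14, by 1.25-fold and 1.22-fold. The A/J high-fat array was the highest of the 4 in 15 of the 25 measured members, where it was the highest in 25.8% of all measured probe sets. The C57BL/6J low-fat array was the lowest in 14 of them, against 29% of all. The signals of Acot1, Acot2, Acot4 and Cyp4a10 were known at the choice, and some genes have several probe sets. Cyp46a1 and Cyp4f18 reached the limit on mean signal only through their A/J arrays. Nothing is therefore read from these counts.

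**Figure D4:**
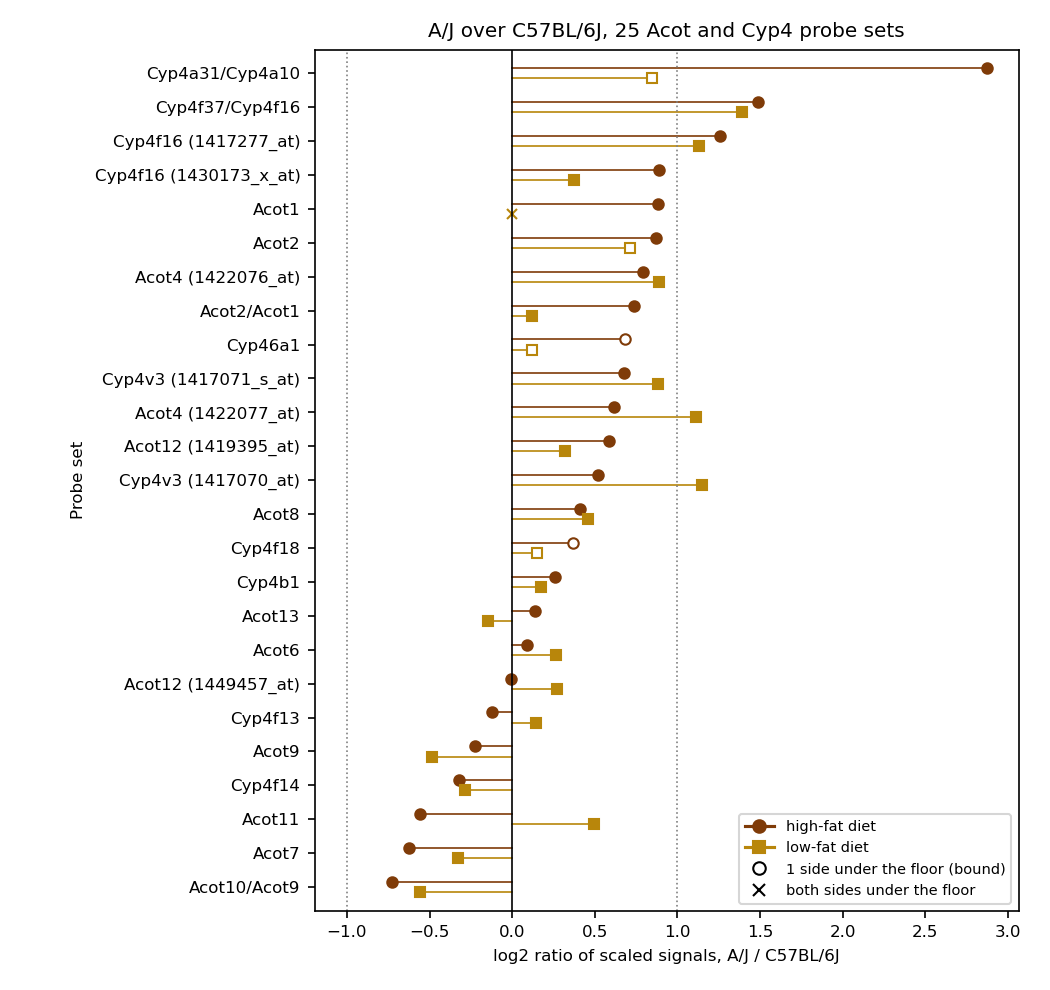
log2 ratio of A/J over C57BL/6J scaled signals for the 25 measured Acot and Cyp4 probe sets, on high-fat (circles) and low-fat (squares), with open symbols for bounds, crosses where both sides were under the floor and dotted lines at 2-fold. Cyp4a31/Cyp4a10 stands at 2.87 on high-fat, and Cyp4f37/Cyp4f16 and 1 Cyp4f16 probe set lie beyond 2-fold on both diets.

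Whether the strains differed in their diet ratio was described by the log2 diet ratio of A/J minus that of C57BL/6J. It was at least 1 in 1 measured member, Cyp4a10 with Cyp4a31, and at most -1 in 1, Acot11, where 1.72% and 2.55% of all measured probe sets lay that far out. At 1.5-fold there were 3 above and 2 below (8.67% and 10.2% of all). For Cyp4a10 it was at most 2.03, because the C57BL/6J low-fat signal was under the floor, and it came to 1.49 with a floor of 50 and 2.87 with a floor of 200. For Acot11 it was -1.06, and it missed 2-fold with quantile normalization (-0.996), without scaling (-0.95) and with a pseudocount of 50 (-0.91). For the shared Acot1 and Acot2 probe set it was 0.62. Between probe sets of 1 gene this quantity differed by a median of 0.38, and by 0.996 at the 90th percentile. In size, that of Acot11 lay just beyond this percentile. With 1 array per group the difference itself could not be tested.

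The genes most like these in pattern were sought over the 4 arrays, as the smallest distance between log2 signals centred on their mean, among 10896 probe sets of 1 gene that were above the floor throughout. Nearest to the shared Acot1 and Acot2 probe set were Lamb3, a laminin subunit, Tubb2a, a tubulin, and Me1, the cytosolic malic enzyme that makes NADPH, at distances of 0.56, 0.8 and 0.81. The same 3 genes were the nearest candidates for Cyp4a10, with Me1 at 1.12, Lamb3 at 1.84 and Tubb2a at 1.94. The Cyp4a10 probe set was itself under the floor on C57BL/6J low-fat. Genes dim on that array, such as Pdk4 at 67.3 and Aqp3 at 35.1, were therefore not among the candidates. Me1 read 2712 on A/J high-fat and 381 on A/J low-fat, with 1087 on C57BL/6J high-fat and 179.9 on C57BL/6J low-fat. Nearest to Acot4 were Scin, an actin-severing protein, Lipa, the lysosomal acid lipase, and Ppara, the gene of PPAR-alpha itself, at 0.05, 0.08 and 0.11. Ppara read 541 on A/J high-fat and 387 on A/J low-fat, with 293 on C57BL/6J high-fat and 203 on C57BL/6J low-fat. The distance rests on 4 arrays and says nothing of shared control.

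The genes around these enzymes were followed in 6 lists that contain no member, each gene by its brightest probe set. The lists were drawn up with earlier results of these data known, so their counts and p-values are no independent check. The mean diet effect over both strains was tested with limma on all measured probe sets, with strain as a second term, and 18 (0.134%) rose and 5 (0.0372%) fell on high-fat at a Benjamini-Hochberg adjusted p under 0.05, with 1103 at an unadjusted p under 0.05. Of 19 other textbook PPAR-alpha targets, 4 rose and 0 fell, with median log2 ratios of 0.76 in A/J and 0.53 in C57BL/6J. For Me1 the log2 rise was 2.71, with a standard error of 0.195 (limma adjusted p = 0.00652). Pdk4, the kinase that restrains pyruvate oxidation, rose by a fitted log2 of 1.99 (SE 0.215, limma adjusted p = 0.0145), and the glycerol channel Aqp3 by 1.41 (SE 0.192, limma adjusted p = 0.0481). Both fits use the floor in place of a dimmer C57BL/6J low-fat signal, so their size depends on it. The fatty acid transporter Cd36 rose by 1.37 (SE 0.194, limma adjusted p = 0.0499). None of the 4 passed with a floor of 50 or 200, with all probe sets kept, with shared probe sets left out or with diet as the only term. The Me1 probe set counts as shared by its type, so it could not pass where shared probe sets were left out.

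In the other 5 lists 0 genes passed limma in either direction, with list medians between 0.02 and 0.39 on the log2 scale in either strain. At an unadjusted p under 0.05, 0 of 7 other thioesterases, 2 of 13 genes that supply acyl-CoA or turn over coenzyme A, 3 of 12 partners of omega-oxidation and 5 of 16 peroxisomal genes were higher, and 0 in these lists were lower. Of 10 receptors and cofactors, 3 were higher and 1 lower at that threshold. Among the partners of omega-oxidation, the alcohol dehydrogenase Adh4 was 1.73-fold higher on high-fat in A/J and 2.22-fold in C57BL/6J (limma adjusted p = 0.184). The aldehyde dehydrogenase Aldh9a1 was 1.93-fold and 1.6-fold higher (limma adjusted p = 0.299). Aldh3a2, the fatty aldehyde dehydrogenase that acts after omega-hydroxylation, read 3036 on A/J high-fat and 1942 on A/J low-fat, with 1676 on C57BL/6J high-fat and 876 on C57BL/6J low-fat (limma adjusted p = 0.328). Aldh3b1 was 1.22-fold and 1.39-fold lower (limma adjusted p = 0.688).

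Of the peroxisomal genes, the thiolase Acaa1b was 2.14-fold higher in A/J and 2.35-fold in C57BL/6J (limma adjusted p = 0.112), and Hsd17b4, the D-bifunctional protein of beta-oxidation, 1.88-fold and 2.03-fold (limma adjusted p = 0.165). Acox2, an oxidase of branched chains and bile acid precursors, was 1.19-fold and 2.26-fold higher, and the carnitine octanoyltransferase Crot 1.46-fold and 1.49-fold. Among genes of acyl-CoA supply, the acyl-CoA synthetase Slc27a2 was 1.66-fold and 2.59-fold higher (limma adjusted p = 0.194). Pank3, a kinase of coenzyme A synthesis, was 1.43-fold and 1.97-fold higher, Acsl5 1.25-fold and 1.39-fold, and Nudt7 1.16-fold and 1.29-fold. Among other thioesterases, Fasn was 1.24-fold and 1.35-fold higher, Them4 1.13-fold and 1.08-fold higher, and Ppt1 1.2-fold and 1.09-fold lower.

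Among the receptors, Pparg was 1.6-fold higher on high-fat in A/J and at least 1.82-fold in C57BL/6J (limma adjusted p = 0.329), and Rxrb, a partner receptor of the PPARs, 1.56-fold and 1.58-fold (limma adjusted p = 0.421). Ppara was 1.4-fold and 1.45-fold higher (limma adjusted p = 0.561), and the coactivator Ppargc1a 1.41-fold and 1.38-fold lower (limma adjusted p = 0.593).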

How the data were processed

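RNA of mucosa pools was hybridised to 1 array per group. Per the labels' protocols, the deposited values are signal intensities that the authors computed with Microarray Suite 5.0 under default settings. Signals were multiplied by 2.80, 2.72, 3.41 and 3.08 (A/J high-fat, A/J low-fat, C57BL/6J high-fat, C57BL/6J low-fat) to a mean, trimmed by 2% at each end and without 64 control probe sets, of 500, floored at 100 and logged. Precision is limited by the number of arrays. Of 22626 probe sets, 20380 have 1 gene in the platform annotation, 691 several and 1555 none. Member gene numbers matched RefSeq for all 26 genes, with no change of symbol.

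Ratios of 2 arrays were counted at 2-fold, with no test. The limma fit (limma 3.58.1, R 4.3.3) had additive strain and diet terms and 1 residual degree of freedom. The strain-by-diet difference is thus the only error that a gene has of its own. It was drawn towards a variance shared by all measured probe sets, so the standard errors given are much alike. The fit was tested on simulated data. Its p-values do not measure the spread between pools of 1 group. Genes were named as called by limma, or as the up to 4 largest mean diet ratios of a list with the same sign in both strains. Alternatives were quantile normalization, no scaling, floors of 50 and 200, a pseudocount of 50, 1.5-fold, no shared probe sets, no filter, a variance trend and diet alone. Members and lists were chosen with earlier results of these data known. Other steps ran in Python 3.11.15 (pandas 2.3.3, numpy 2.4.6).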

Additional observations from a re-analysis of the deposited data

How the results depend on the processing

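No paired analysis was possible because each group has 1 array. Of 845 recomputed log2 ratios of single members, 827 moved by less than 1.5-fold and 18 by more, all with a floor of 50 or 200. The 845 include the settings without a filter and without shared probe sets. These change which probe sets are kept and cannot move a single ratio, so the 827 overstate the stability. Those at least 2-fold in the report kept their sign. The counts of members at least 2-fold apart moved more, and nothing is read from them. The difference of diet ratios had 0 lower (Acot11 lost) with quantile normalization, and 2 higher and 0 lower without scaling, where strain on high-fat had 8 higher. Without scaling, the median log2 strain ratio on high-fat over all measured probe sets was itself 0.3, against 0.02 with scaling. A floor of 50 gave 4 higher with diet in C57BL/6J and 2 higher in the difference, and a floor of 200 gave 1 higher in C57BL/6J. A pseudocount of 50 gave 0 lower in A/J (Acot11 lost), and 2 higher and 0 lower in the difference. At 1.5-fold there were 7 higher with diet in A/J and 8 in C57BL/6J, 12 higher and 2 lower between strains on high-fat, 8 higher on low-fat, and 3 higher and 2 lower in the difference. Without shared probe sets, 1 was higher in A/J, 0 in C57BL/6J, 1 between strains on high-fat and 0 in the difference, since Cyp4a10 and the Acot1 and Acot2 pair are then left out.

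The limma calls over all probe sets were 1 rose and 0 fell with a floor of 50, 0 and 0 with a floor of 200, without shared probe sets, without a filter or with diet alone, 41 and 17 with a variance trend, and 32 rose with a pseudocount of 50. Without scaling 10 fell. The PPAR-alpha targets had 0 that rose with either other floor, without shared probe sets, without a filter and with diet alone. Without shared probe sets, that of Me1 is itself left out. The variance trend gave 1 that rose among acyl-CoA supply genes and 2 among peroxisomal genes, and the pseudocount 1 among peroxisomal genes. The causes were not tested. Signals near the floor limit every ratio of Acot1, Acot2 and Cyp4a10 on low-fat.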
